A study of Drosophila melanogaster with 24 samples.

Results

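The data compared here are RNA sequencing read counts from thoraces of male Drosophila melanogaster in which muscle expressed an RNAi transgene against the gene CG6272, set against thoraces expressing a control RNAi transgene in the same way. The members were chosen by their genotype labels alone and number 9 of the 24 libraries of the study. They are 3 libraries of Mhc>CG6272RNAi, 3 of Mhc>GFPRNAi and 3 of Mhc>whiteRNAi, and the labels call the libraries of a group biological replicates. Every fly was male, 10 days old, and carried the Mhc driver, which is active in skeletal muscle, so the control thoraces also expressed double-stranded RNA in muscle, directed at GFP, a jellyfish reporter, or at the eye pigment transporter gene white. The rest of the study consists of 9 thorax libraries with RNAi in muscle against the proteasome subunits Prosbeta1 and Prosbeta5 or the ATPase TER94 (ProsB1, ProsB5 and Ter94 in the labels, 3 each) and 6 head libraries that were not used here. The titles of the CG6272 libraries are built differently from all other thorax titles and carry the tag BL33652, so a library batch and the genotype cannot be told apart. A thorax is mostly muscle but also holds cuticle, fat body, gut, trachea, blood cells and nerves, and in such bulk RNA fewer cells of a type and less RNA per cell cannot be told apart.

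CG6272, also known as Irbp18, encodes a basic leucine zipper (bZIP) protein of the C/EBP family. Proteins of this kind bind DNA as dimers, and in flies the partners known for CG6272 are Xrp1, a C/EBP-related factor of cell competition and the DNA damage response, and crc, the fly ATF4, which is translated when eIF2alpha is phosphorylated and switches on genes for amino acid supply. Both partners have been linked to responses to ribosome defects and proteotoxic stress. The other muscle knockdowns of the study impair protein degradation, and the comparison with control RNAi asks what loss of CG6272 does to thoracic RNA without such an impairment.

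Reads in genes numbered 31.0 to 32.9 M per control library and, in the CG6272 libraries, 34.8 (replicate 2), 69.0 (replicate 1) and 79.2 M (replicate 3), with 12584 to 13398 genes detected in controls and 12604 to 13165 in CG6272 libraries. Levels are read counts scaled to a common library size, per M reads in genes (CPM), after TMM scaling, which aligns libraries on the bulk of their genes. Changes are log2 fold changes ± SE relative to both control groups, each with equal weight, from edgeR's quasi-likelihood test with p-values adjusted by the Benjamini-Hochberg method over the 10784 genes tested. A gene is called, and said to have risen or fallen, where its adjusted p was under 0.05 and its sign was the same against each control alone. Reads carry no molecular identifiers, so a limit drawn from a count of 0 covers counting error only.

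The targeted gene was lower in the CG6272 thoraces. CG6272 stood at 14.7, 15.2 and 13.6 CPM in the 3 CG6272 RNAi libraries, and at 26.4 (lowest), 27.7 (median) and 29.5 CPM (highest) in the 6 controls. The 2 sets did not overlap, and the spread within each was small, with means of 14.5 ± 0.786 (SD, n = 3) and 27.8 ± 1.14 CPM (SD, n = 6). The log2 fold change was -0.94 ± 0.07 (adjusted p = 0.000158, edgeR quasi-likelihood). The ProsB1, ProsB5 and Ter94 RNAi thoraces held means of 28.9, 29.1 and 37.1 CPM, and the fall against their mean was -1.12 ± 0.08 (adjusted p = 7.22e-07, fit of the 18 thorax libraries). The level that remained includes transcript from cells outside muscle, whose share was not measured. A gene on the opposite strand overlaps CG6272, and the strand setting of the counts is not given in the sources used here.

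Of the partners, neither was called in the full set. Xrp1 stood at 824, 727 and 923 CPM, against 824 (lowest), 1020 (median) and 1092 CPM (highest) in controls, a difference of -0.27 ± 0.10 with an adjusted p of 0.0737. With 1 library left out at a time, the Xrp1 difference ran from -0.35 to -0.19 and its adjusted p in edgeR from 0.0381 to 0.152. The Xrp1 libraries of the groups overlapped, although Xrp1 was lower than in the other knockdowns by -0.42 ± 0.07 (adjusted p = 0.000604), whose means were 1054, 1116 and 1152 CPM. The crc transcript stood at 1071, 1134 and 1141 CPM against 1162 to 1270 CPM in controls. These sets did not overlap, but the difference in crc of -0.12 ± 0.07 was small and was not called (adjusted p = 0.20). Reads of crc also overlap a neighbouring gene on the same strand.

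**Figure D1:**
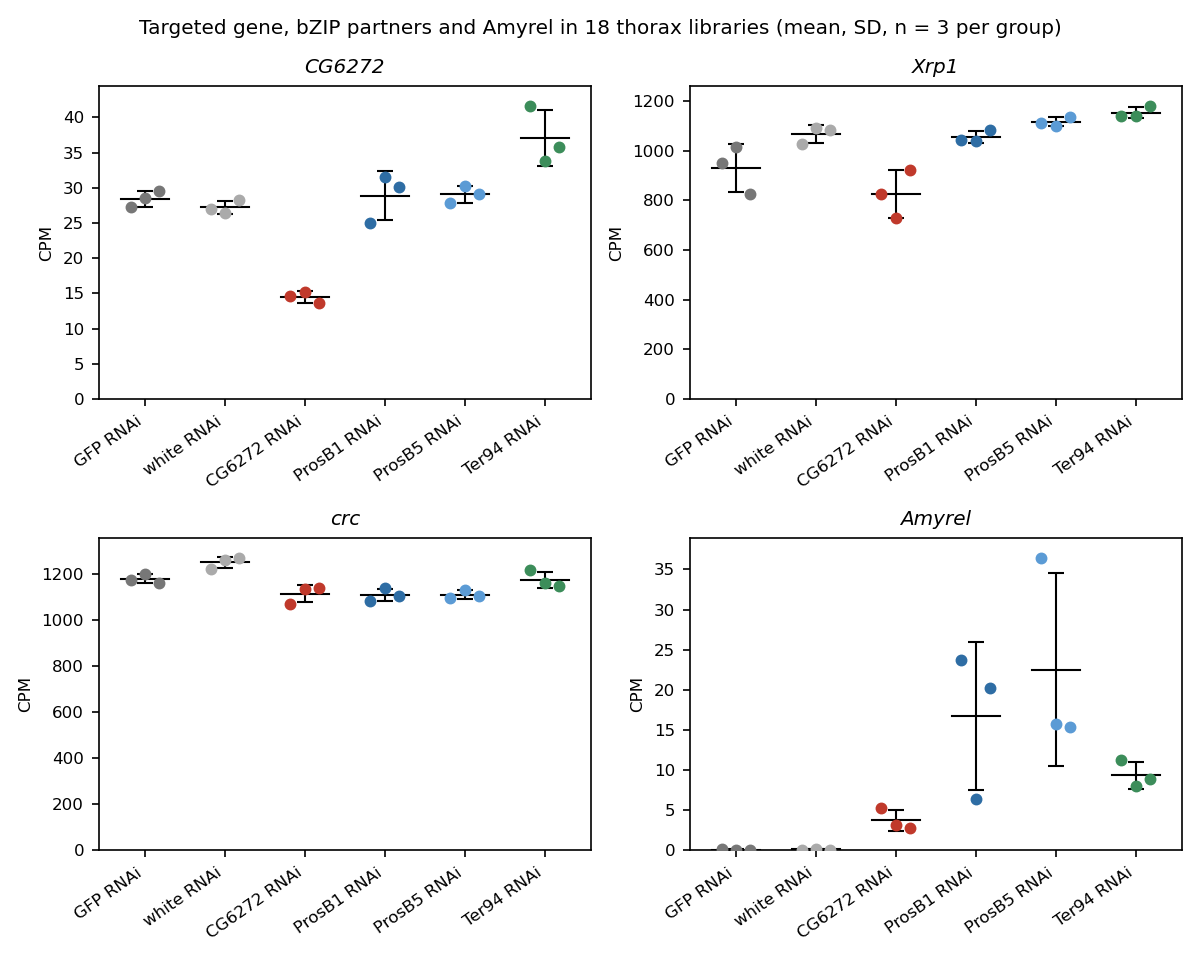
Levels of CG6272, its partners Xrp1 and crc, and Amyrel in CPM (y axis, linear, from 0) in each of the 18 thorax libraries, by RNAi group (x axis). Points are libraries and bars give the mean and SD of each group of 3. CG6272 is lowest in its own knockdown among the 6 groups, while Amyrel is near 0 in both control groups and above them in each of the 4 knockdown groups.

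Across the transcriptome 2437 of 10784 genes were called (22.6% of those tested). Of these 1419 were higher (13.2%) and 1018 lower (9.44%) in CG6272 RNAi thoraces. Most of these changes were small. Among called genes the median log2 fold change was 0.52 for those that rose and -0.55 for those that fell, and 259 rose and 258 fell by at least 2-fold, while the median over all genes tested was 0.02. The libraries of the groups did not overlap for 1158 of the genes that rose and 896 of those that fell, whereas 27.5% of all genes tested had no overlap between CG6272 and control libraries. Each control alone gave 1951 genes (18.1%, against GFP RNAi) and 1246 genes (11.6%, against white RNAi), and 828 genes passed both tests with the same sign (7.68%), 434 of them higher (4.02%) and 394 lower (3.65%). The controls themselves differed in 275 genes (2.55%), of which 159 were higher (1.47%) and 116 lower in white RNAi (1.08%), and 128 of the genes called for CG6272 were among them.

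**Figure D2:**
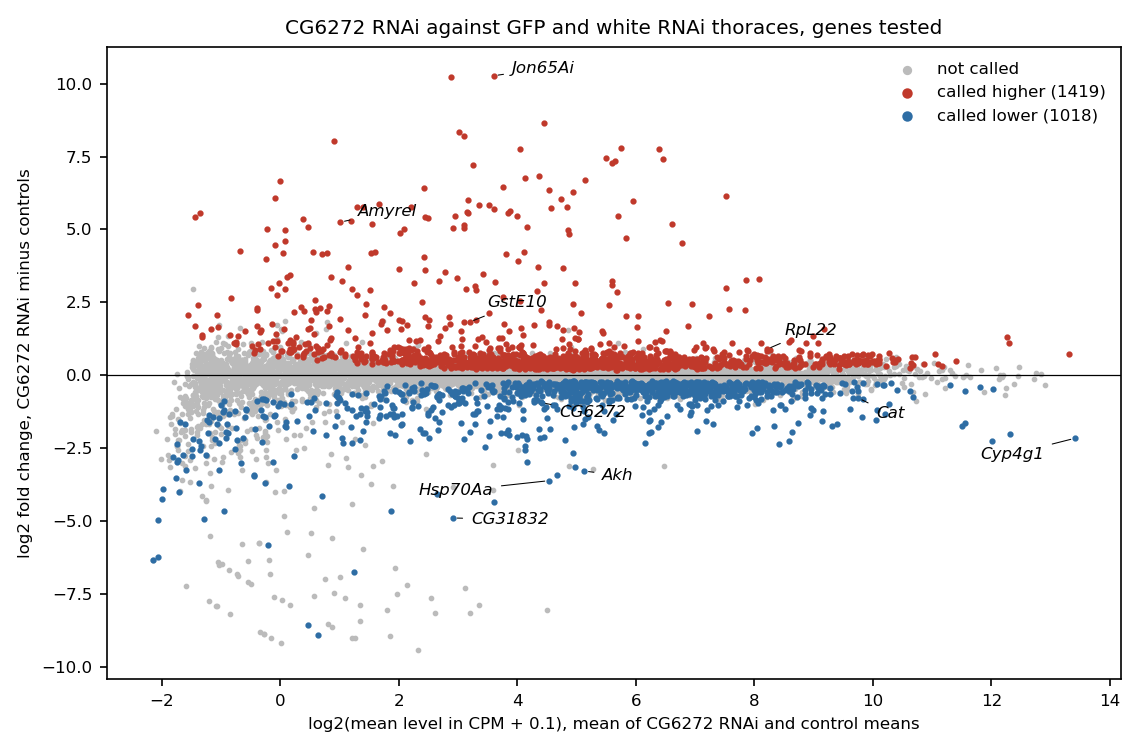
Log2 fold change of CG6272 RNAi against the mean of the controls (y axis) by mean level in log2 CPM (x axis) for the 10784 genes tested. Coloured points are the 1419 genes called higher and 1018 called lower, and most of them lie within 1 log2 unit of 0.

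The 3 CG6272 libraries did not behave alike, and replicate 2 stood apart. Sorted into 5 equal classes by exonic length (for 10627 genes, 98.5% of those tested, matched by symbol), the shortest class of genes, 30 to 1091 bases long, had a median log2 difference from the mean of the controls of 0.39 in replicate 2. The longest class, 3992 to 69810 bases, had a median of -0.68 in that library. In replicates 1 and 3 the same medians were 0.08 and 0.08 for short genes and -0.10 and -0.08 for long ones, and in controls they lay between -0.07 and 0.04. The calls followed this trend, with 23.9% of the shortest class called higher and 4.84% lower, against 1.36% higher and 16.1% lower in the longest class. Replicate 2 correlated with the others at 0.9837 and 0.9777 across genes, below the 0.9927 between replicates 1 and 3. How far length-related RNA quality or counting contributes was not tested. Each group of genes below is therefore given also without replicate 2, and with each library's trend on length removed, 2 settings chosen after the data were seen, with the number higher before the number lower. Over all genes these counts were 1276 and 1285 of 11082 without replicate 2, and 1310 and 1377 of 10627 with the length trend removed. The calls without replicate 2 numbered 2561, of which 1963 were among the 2437, and 1412 genes were called in the full set, in both settings and with the settings joined.

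**Figure D3:**
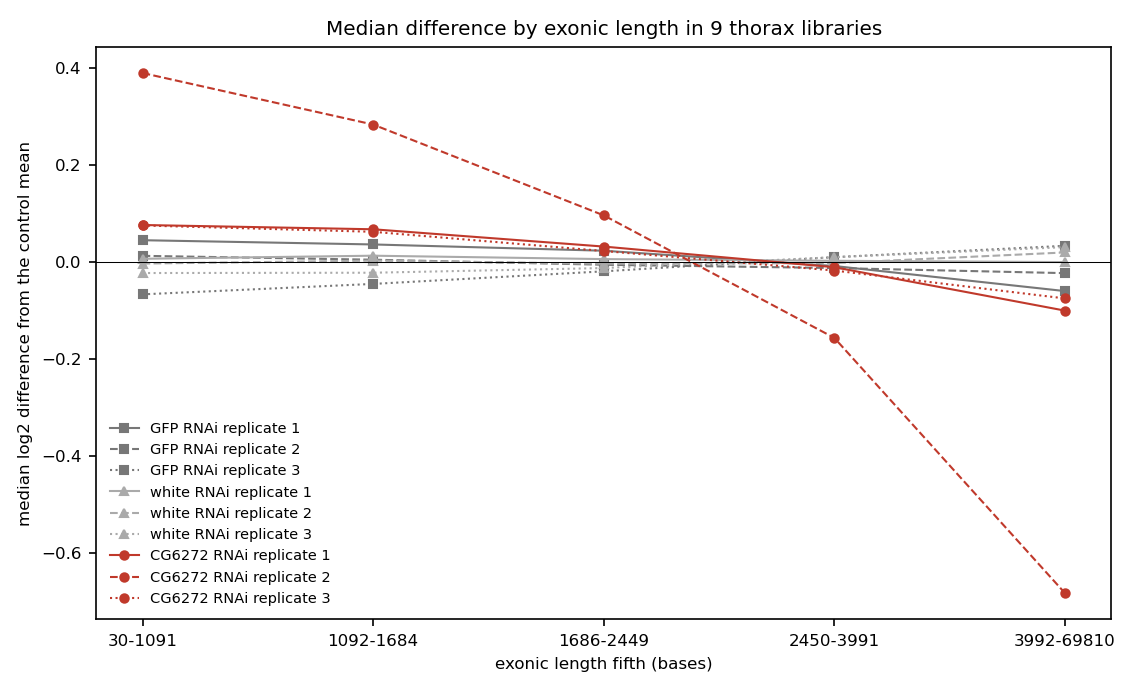
Median log2 difference from the mean of the controls (y axis) in 5 classes of exonic length, from shortest to longest (x axis), for each of the 9 libraries. Replicate 2 of CG6272 RNAi runs from 0.39 to -0.68, while the other 8 libraries stay near 0.

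Of 20 other bZIP genes tested, 0 rose and 3 fell (15%, beside 9.44% lower over all genes tested), with a median of -0.15. The count was also 0 and 3 without replicate 2 and with the length trend removed, but in the second setting the 3 were CrebA, CG13624 and CG18619, and Atf3 was not among them. CrebA, which drives secretory pathway genes, stood at 31.1, 19.4 and 37.6 CPM against 43.0 to 56.3 CPM in controls, with no overlap, and fell (-0.79 ± 0.18, adjusted p = 0.0178). Atf3, a stress-responsive factor, stood at 96.4, 62.2 and 98.3 CPM against 111 to 138 CPM and changed by -0.54 ± 0.15 (adjusted p = 0.0337). CG13624, now called REPTOR and known as a factor repressed by TORC1, stood at 126, 79.2 and 139 CPM against 139 to 185 CPM and changed by -0.53 ± 0.16 (adjusted p = 0.0427). In all 3 genes replicate 2 was the lowest library. The Atf3 call was lost without any 1 of 5 control libraries and that of CG13624 without any control library or without CG6272 replicate 1, with adjusted p up to 0.0782 and 0.0880, and the Atf3 call also with the length trend removed (adjusted p = 0.0764).

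The remaining bZIP genes were not called. The Nrf2 homologue cnc, which controls antioxidant and proteasome genes, stood at 327, 225 and 367 CPM against 366 to 415 CPM (-0.36 ± 0.13, adjusted p = 0.0832). Its partner maf-S stood at 44.7, 66.0 and 46.4 CPM against 43.4 to 53.5 CPM (0.18 ± 0.13). The clock regulators Pdp1 (-0.45 ± 0.18, adjusted p = 0.0973) and vri (-0.31 ± 0.16) had CG6272 libraries that overlapped with the controls. The AP-1 subunits Jra (0.01 ± 0.07) and kay (-0.18 ± 0.11), the stress factors Atf-2 (0.03 ± 0.10), Atf6 (-0.18 ± 0.10) and Xbp1 (-0.08 ± 0.07), and slbo (-0.07 ± 0.10), the other fly C/EBP, also overlapped. The same held for CrebB-17A (-0.13 ± 0.06) and for CG18619 (0.01 ± 0.11), now called REPTOR-BP, which differed by -0.28 with the length trend removed (adjusted p = 0.00528). The genes gt, tj and CG15479 lay below 2 CPM in the 9 libraries, and CG7786, below 0.2 CPM, did not enter the test.

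Genes of the eIF2alpha branch, through which crc is translated, gave 0 calls of 8 in the full set (0 higher and 4 lower at an unadjusted p under 0.05 and in DESeq2), with a median of -0.18. Thor, the translation repressor 4E-BP and a known target of crc, stood at 274, 410 and 377 CPM against 372 to 858 CPM (-0.56 ± 0.18, adjusted p = 0.0503). The kinases Gcn2 and PEK were lower without overlap but were not called (-0.43 ± 0.14, adjusted p = 0.0561, and -0.29 ± 0.10, adjusted p = 0.0628). Without replicate 2, 0 rose and 2 fell, Gcn2 and Thor, and the same genes fell with the length trend removed, at -0.18 and -0.83.

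Of 27 genes of amino acid synthesis and one-carbon metabolism, 8 rose and 0 fell (29.6%, beside 13.2% called higher over all genes), with a median of 0.22. The controls themselves differed in 6 of the 27 (22.2%, beside 2.55% over all genes), and only 1 of the 27, CG5840, passed as higher against each control separately (3.7%, beside 4.02% over all genes). The counts were 6 and 0 without replicate 2, 8 and 0 with the length trend removed and 5 and 0 with the settings joined. CG5840, now called P5cr-2, a proline synthesis enzyme, stood at 121, 139 and 117 CPM and at 57.6 (lowest), 77.0 (median) and 96.7 CPM (highest) in controls. Its libraries did not overlap with the controls, and it rose by 0.74 ± 0.08 (adjusted p = 0.000935). CG3011, now called Shmt, the serine hydroxymethyltransferase that feeds the folate cycle, stood at 282, 341 and 335 CPM against 129 to 283 CPM and rose by 0.70 ± 0.09 (adjusted p = 0.00138). Its white RNAi libraries were well above its GFP RNAi libraries, and 1 CG6272 library lay within the control range. CG6188, now called Gnmt, which consumes S-adenosylmethionine, rose by 0.97 ± 0.22 (adjusted p = 0.0178), at 216, 209 and 153 CPM against 67.7 to 137 CPM. The aspartate aminotransferase Got2 rose by 0.36 ± 0.07 (adjusted p = 0.0132), and Nmdmc, Cbs, pug and Ahcy13 rose by 0.26 to 0.70. Of 20 aminoacyl-tRNA synthetases 2 rose and 3 fell (10% and 15%, beside 13.2% and 9.44% over all genes). The counts were 1 and 3 without replicate 2 and 3 and 1 with the length trend removed. Of 17 amino acid transporters 0 rose and 2 fell (11.8%, near the 9.44% lower over all genes), among them JhI-21 at -0.36 ± 0.06 (adjusted p = 0.00689). The counts were 1 and 3 without replicate 2 and 0 and 3 with the length trend removed.

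Genes of starch and maltose digestion changed in both directions, some of the rises by large factors. Amyrel, an amylase relative, stood at 5.29, 3.15 and 2.82 CPM, and at 0 (lowest), 0.0976 (median) and 0.189 CPM (highest) in controls. The sets did not overlap, and Amyrel rose by 5.25 ± 0.51 (adjusted p = 0.000461). Its level was lower than in the other knockdowns, which held means of 16.8, 22.5 and 9.35 CPM, by -2.01 ± 0.41 (adjusted p = 0.00216, 18-library fit). The maltase gene Mal-A3 stood at 88.8, 51.1 and 26.5 CPM against 0.413 to 9.61 CPM (5.0 ± 0.82, adjusted p = 0.00467). Mal-A4 stood at 76.6, 47.0 and 42.5 CPM against 0.447 to 12.8 CPM (3.17 ± 0.55, adjusted p = 0.00574), and Mal-A7 at 322, 341 and 782 CPM against 3.68 to 114 CPM (3.30 ± 0.63, adjusted p = 0.00900). In these 3 genes every CG6272 library lay above every control, and the controls varied by more than 10-fold among themselves. Mal-A2, Mal-B1 and Mal-B2 also rose, the last from 151 to 238 CPM in controls to 299, 321 and 329 CPM (0.73 ± 0.08, adjusted p = 0.000779). The amylase genes went the other way, with Amy-d at 458, 544 and 961 CPM against 1265 to 1713 CPM (-1.18 ± 0.21, adjusted p = 0.00754), and Amy-p at -0.75 ± 0.20 (adjusted p = 0.0314). Of 23 genes of this group 7 rose and 4 fell (30.4% and 17.4%, beside 13.2% and 9.44% over all genes). The counts were 7 and 2 without replicate 2 and 9 and 3 with the length trend removed. Against each control separately 3 passed as higher and 1 as lower (13% and 4.35%, beside 4.02% and 3.65% over all genes). Amylase and maltase copies are close in sequence, so the split of reads among them is uncertain.

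The largest fitted rises were in genes at or near 0 in most controls. The 10 genes with the largest fitted rise, among 1015 called genes that reached 5 CPM on average in CG6272 or control libraries and did not overlap, were Jon65Ai, CG12057, CG6277, Npc2d, CG5767, CG17571, CG33306, CG10477, CG7916 and mag. Jon65Ai, a serine protease of the gut, stood at 26.1, 29.3 and 17.1 CPM. In controls it stood at 0.347 CPM in GFP RNAi replicate 1 and at 0 in the other 5 libraries, where a count of 0 allows up to 0.0961 to 0.103 CPM (3 reads in each library). Since the white RNAi group was wholly at 0, no fold is given (adjusted p = 0.000411), and the same holds for CG12057, CG6277, Npc2d and CG5767. The gut lipase gene mag stood at 139, 107 and 46.9 CPM against 0.0333 (lowest), 0.149 (median) and 13.0 CPM (highest) in controls, and was called (adjusted p = 0.00409). CG10477, of the trypsin-like proteases, stood at 109, 59.6 and 96.7 CPM against 0.0320 to 9.17 CPM (adjusted p = 0.00257). The 3 others stood at 244, 198 and 72.7 CPM (CG7916), 46.2, 36.5 and 13.5 CPM (CG33306) and 147, 129 and 38.1 CPM (CG17571), above every control library in each gene. In these 5 genes the white RNAi libraries held at most 0.165 CPM, so a fold against both controls has little meaning. Against GFP RNAi alone the difference was 4.45 for mag (adjusted p = 0.0372), 4.80 for CG10477 (adjusted p = 0.0220) and 4.32 for CG33306 (adjusted p = 0.0307), while CG7916 and CG17571 did not pass (adjusted p = 0.0563 and 0.0506). In each of the 10 genes GFP RNAi replicate 1 was the highest control, so this library shared a part of the pattern. The CG6277 call was lost without white RNAi replicate 2 or 3 (highest adjusted p = 0.0520).

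Jon65Ai and mag were also above most controls in the other muscle knockdowns, where Jon65Ai had means of 36.1, 20.5 and 2.51 CPM and mag 162, 78.9 and 37.7 CPM. Their differences from the mean of those knockdowns were 0.97 ± 0.39 for Jon65Ai (adjusted p = 0.0732) and 0.32 ± 0.67 for mag (adjusted p = 0.749), and neither was called. Of the 8 gut marker genes tested, 3 rose and 1 fell, which were Jon65Ai, Jon65Aii, at 22.1, 23.1 and 10.7 CPM against 0 to 0.882 CPM, lambdaTry, at 69.0, 48.2 and 19.3 CPM against 0.0961 to 9.01 CPM, and, falling, the lysozyme LysB (-1.55 ± 0.18). These were 37.5% and 12.5% of the gut markers, beside 13.2% and 9.44% over all genes. The counts were 4 and 1 without replicate 2 and 3 and 1 with the length trend removed. The summed level of the gut markers was 1492, 2202 and 3462 CPM in the CG6272 libraries, a range that spans the 2931 to 3369 CPM of the controls. The most abundant gut marker, alphaTry, was not called (-0.42 ± 0.23, adjusted p = 0.199), so the gut markers did not move as 1 block. The part of gut content or gut RNA in these rises was not tested.

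**Figure D4:**
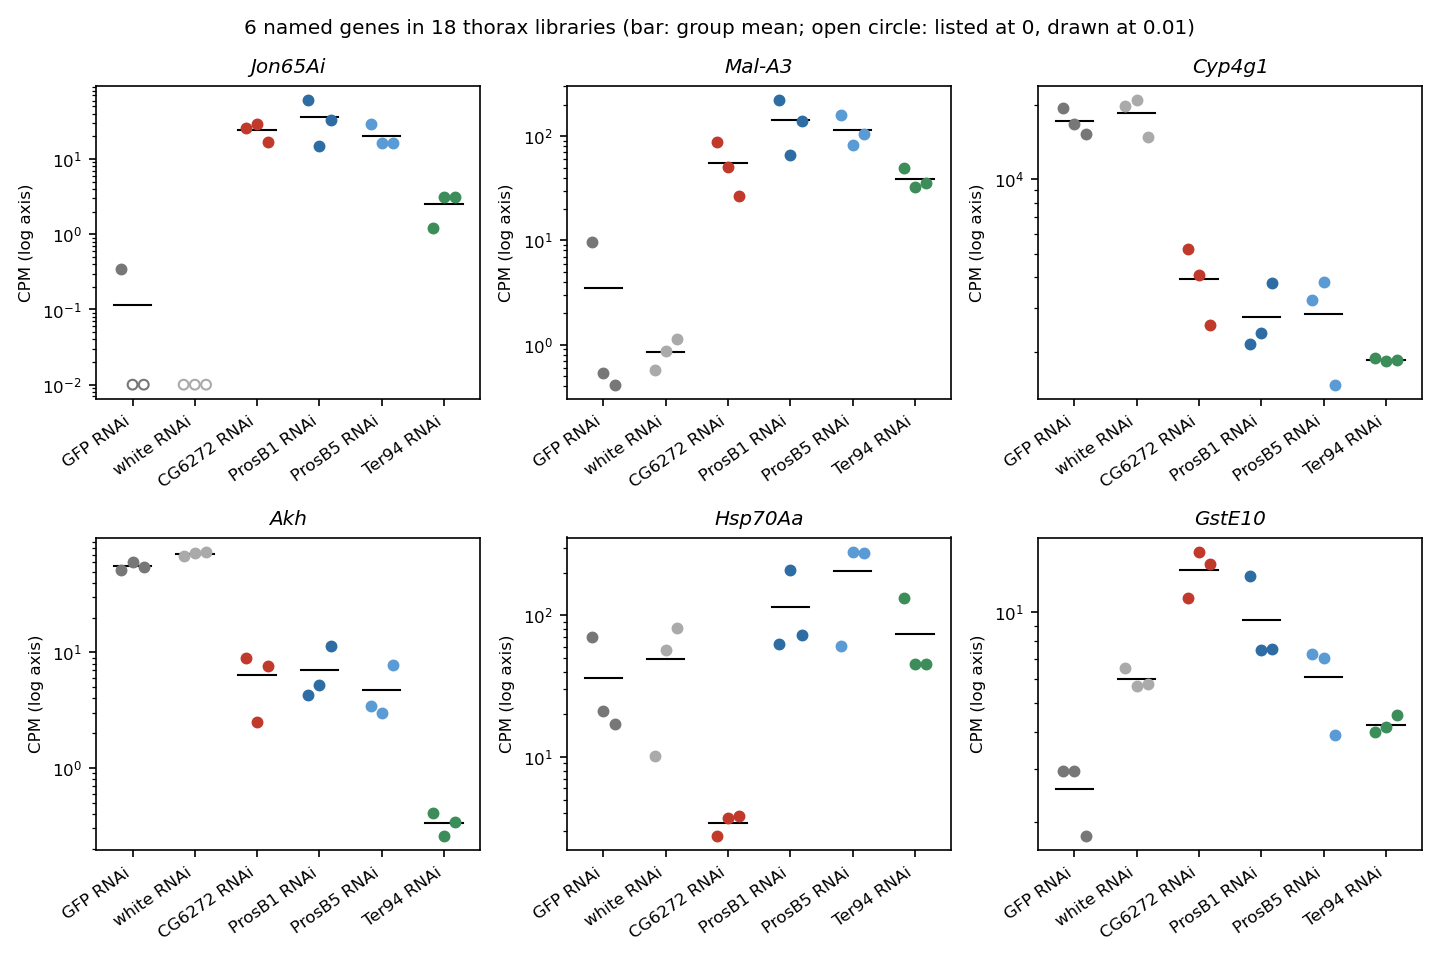
Levels in CPM (y axis, logarithmic) of Jon65Ai, Mal-A3, Cyp4g1, Akh, Hsp70Aa and GstE10 in the 18 thorax libraries by RNAi group. Filled points are libraries, and open circles at the foot of the axis are libraries listed at 0. The CG6272 libraries lie on the side of the other knockdowns for Jon65Ai, Mal-A3, Cyp4g1 and Akh, and apart from every other group for Hsp70Aa and, in all but 1 ProsB1 library, for GstE10.

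The largest falls, among 793 called genes of the same kind, were in CG31832, CG13155, Hsp70Aa, Hsp70Ab, Akh, CG14075, Cpr49Ab, LysE, Cyp6g2 and CG42255. Akh encodes adipokinetic hormone, the fly counterpart of glucagon in mobilising fat and sugar, and is made by neuroendocrine cells of the corpora cardiaca. It stood at 8.94, 2.52 and 7.66 CPM, and at 51.4 (lowest), 64.2 (median) and 74.3 CPM (highest) in controls. The sets lay far apart, and Akh fell (-3.28 ± 0.35, adjusted p = 0.000685). CG14075 had nearly the same values, 8.32, 2.67 and 7.68 CPM against 48.9 to 64.8 CPM (-3.16 ± 0.32, adjusted p = 0.000560), with replicate 2 the lowest in both genes. In the ProsB1, ProsB5 and Ter94 RNAi thoraces the Akh means were 6.98, 4.72 and 0.334 CPM, beside 6.37 CPM in CG6272 RNAi. CG6272 RNAi lay above Ter94 RNAi by 4.28 for Akh (adjusted p = 5.66e-05) and 4.43 for CG14075 (adjusted p = 4.87e-05). Neither gene was called against ProsB1 RNAi (Akh -0.10, adjusted p = 0.882, and CG14075 0.03, adjusted p = 0.976) or against ProsB5 RNAi (0.46, adjusted p = 0.439, and 0.72, adjusted p = 0.232).

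CG31832 stood at 0.321, 0.390 and 0.318 CPM against 2.91 to 32.2 CPM (-4.89 ± 0.29, adjusted p = 8.86e-05), and its GFP RNAi libraries, from 18.1 CPM, lay above its white RNAi libraries, up to 5.13 CPM. The cuticle protein gene Cpr49Ab stood at 2.86, 8.28 and 1.22 CPM against 22.6 to 39.9 CPM (-2.98 ± 0.56, adjusted p = 0.00818). Cpr49Ab was nearly absent from the other knockdowns, with means of 0.269, 0.229 and 0.252 CPM, and CG6272 RNAi stood above their mean by 3.96 ± 0.47 (adjusted p = 6.16e-05). CG13155 had the same order, with 0.248, 0.570 and 0.0764 CPM in CG6272 RNAi, 4.10 to 10.1 CPM in controls (-4.67 ± 0.55, adjusted p = 0.00104) and means of 0.0279 to 0.0516 CPM in the others. CG42255 differed from both sides, at 3.90, 3.33 and 2.55 CPM against 13.1 to 27.0 CPM in controls (-2.47 ± 0.21, adjusted p = 0.000282), and it was lower than in the other knockdowns by -1.85 ± 0.24 (adjusted p = 0.000112). The lysozyme gene LysE fell (-2.67 ± 0.21, adjusted p = 0.000195), and it is one of several near-identical copies.

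Genes of cuticular hydrocarbon synthesis, which in flies is the work of oenocytes, the lipid-handling cells under the cuticle, were lower. Cyp4g1, the cytochrome P450 that makes the final hydrocarbon, stood at 5201, 4106 and 2565 CPM, and at 14752 (lowest), 18061 (median) and 20870 CPM (highest) in controls. The sets did not overlap, and Cyp4g1 fell (-2.16 ± 0.24, adjusted p = 0.000846). The fatty acid synthase v(2)k05816, now called FASN2, stood at 176, 129 and 92.5 CPM against 524 to 756 CPM (-2.27 ± 0.22, adjusted p = 0.000434). The fatty acyl reductases CG17560, at 25.2, 28.2 and 16.4 CPM against 89.9 to 141 CPM (-2.33 ± 0.19, adjusted p = 0.000195), and CG13091 (-1.65 ± 0.26, adjusted p = 0.00408) fell likewise. Of 4 oenocyte markers tested 3 fell and 0 rose (75% lower, beside 9.44% over all genes), also without replicate 2 and with the length trend removed. The 1 remaining marker had a positive difference and was not called. Their summed level, 4540 to 5385 CPM, nonetheless overlapped that of the controls, 3801 to 6717 CPM. Whether fewer oenocytes, less RNA in them or another cause moves with these falls was not tested. Reads of Cyp4g1, CG17560 and v(2)k05816 overlap a neighbouring gene on the same strand.

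Among cytochrome P450 genes as a family, 14 of 75 rose and 10 fell (18.7% and 13.3%, beside 13.2% and 9.44% over all genes), with a median of 0.11. The counts were 15 and 12 without replicate 2 and 12 and 13 with the length trend removed, and the controls differed from each other in 17 of the 75 (22.7%, beside 2.55% over all genes). The falls included Cyp6g2 (-2.56 ± 0.20, adjusted p = 0.000195), at 6.61, 3.30 and 5.12 CPM against 26.1 to 35.2 CPM, and Cyp4aa1 (-2.15 ± 0.16, adjusted p = 0.000158), at 6.64, 6.39 and 9.57 CPM against 29.3 to 40.6 CPM. Cyp4d14 rose, from 6.37 to 13.3 CPM in controls to 36.3, 38.4 and 32.7 CPM (1.83 ± 0.18, adjusted p = 0.000521). These 3 genes had no overlap between groups. In the wider list of lipid genes 3 of 22 rose and 7 fell (13.6% and 31.8%, beside 13.2% and 9.44% over all genes). The counts were 3 and 6 without replicate 2 and 4 and 4 with the length trend removed. Among the falls was foxo (-0.69 ± 0.15, adjusted p = 0.0150), the transcription factor restrained by insulin signalling, which was lower in the white RNAi than in the GFP RNAi libraries and overlapped between CG6272 and controls. Of 7 fat body markers 2 rose, the storage proteins Lsp1beta (1.10 ± 0.19, adjusted p = 0.00616) and Lsp2 (1.59 ± 0.30, adjusted p = 0.00872), and 1, Cyp4g1, fell. These were 28.6% and 14.3%, beside 13.2% and 9.44% over all genes. The counts were 2 and 1 without replicate 2 and 3 and 1 with the length trend removed. Against each control separately 0 of the 7 passed as higher and 1 as lower (14.3%, beside 3.65% over all genes). The list, Cyp4g1 included, summed to 11680 to 13966 CPM against 22364 to 29530 CPM in controls. Lsp2 stood at 44.9 to 131 CPM in GFP RNAi and 584 to 814 CPM in white RNAi, a range that takes in 2 of the 3 CG6272 libraries.

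Many heat shock genes were lower against the pooled controls, but few against each control separately. Of 21 chaperone genes 2 rose and 11 fell (9.52% and 52.4%, beside 13.2% and 9.44% over all genes tested), with a median of -0.62. Without replicate 2 the count was 2 and 4 with a median of -0.48, and with the length trend removed it was 1 and 10 with a median of -0.70. With the settings joined it was 1 and 3 with a median of -0.61. Against each control separately 0 of the 21 passed as higher and 2 as lower (9.52%, beside 3.65% over all genes). The heat-inducible Hsp70Aa stood at 2.76, 3.72 and 3.83 CPM, and at 10.1 (lowest), 38.8 (median) and 81.4 CPM (highest) in controls. Every CG6272 library lay below every control, and Hsp70Aa fell (-3.61 ± 0.76, adjusted p = 0.0135). The controls varied widely, and the CG6272 libraries were close together. The other inducible copies Hsp70Ab, Hsp70Ba, Hsp70Bb, Hsp70Bbb and Hsp70Bc fell by 1.86 to 3.43, but the copies are almost identical, so they are not separate evidence. Without replicate 2 the calls of Hsp27, Hsp68 and the 4 Hsp70B copies were lost, with adjusted p from 0.0630 to 0.0954. The small heat shock gene Hsp26 stood at 24.7, 30.5 and 23.6 CPM against 33.1 to 67.8 CPM (-0.85 ± 0.23, adjusted p = 0.0326), and Hsp27 at 1.99, 2.28 and 2.24 CPM against 3.68 to 14.2 CPM (-1.84 ± 0.49, adjusted p = 0.0314). The cytosolic Hsp90, Hsp83, stood at 557, 524 and 667 CPM against 561 to 1357 CPM and changed by -0.79 ± 0.18 (adjusted p = 0.0191), with 1 control library within the CG6272 range. The small heat shock gene Hsp67Ba (0.52 ± 0.11, adjusted p = 0.0143) and the mitochondrial chaperone gene Hsp60 (0.26 ± 0.07) rose. Against the other knockdowns the Hsp70Aa difference was wider still, -5.13 ± 0.88 (adjusted p = 0.000723), with means of 115, 205 and 74.1 CPM there.

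No proteasome gene among those tested was called higher. Of 13 genes of the 20S core 0 were called (0 higher and 1 lower at an unadjusted p under 0.05 and in DESeq2), with a median of -0.18. Of 18 genes of the 19S cap 0 rose and 4 fell (22.2%, beside 9.44% lower over all genes), with a median of -0.09. The falls were those of Rpn6, a scaffold subunit of the lid, at 122, 137 and 112 CPM against 152 to 174 CPM (-0.39 ± 0.09, adjusted p = 0.0159), Rpn2 (-0.35 ± 0.08, adjusted p = 0.0170), Rpn5 (-0.27 ± 0.07, adjusted p = 0.0298) and Rpn1 (-0.27 ± 0.08). These counts depended on replicate 2, in which the short 20S transcripts summed to 1335 CPM against 980 and 917 CPM in replicates 1 and 3. Without that library 0 rose and 8 fell in the 20S core (median -0.37), and 0 rose and 11 fell in the 19S cap (median -0.23). With the length trend removed the counts lower were 11 and 10. The Rpn2 call was lost without white RNAi replicate 2 (adjusted p = 0.0531) and with the length trend removed (adjusted p = 0.0781), and that of Rpn5 without any 1 of 7 libraries (highest adjusted p = 0.0801). Among autophagy and lysosome genes 1 of 27 rose and 6 fell (3.7% and 22.2%, beside 13.2% and 9.44% over all genes). The counts were 1 and 8 without replicate 2 and 0 and 6 with the length trend removed. The autophagy receptor ref(2)P, the fly p62, stood at 387, 355 and 398 CPM against 468 to 614 CPM, without overlap (-0.51 ± 0.07, adjusted p = 0.00276). Lamp1 (-0.43 ± 0.08), Atg2 (-0.44 ± 0.09), Tor (-0.50 ± 0.13) and S6k (-0.52 ± 0.15) fell too. S6k overlapped between groups, and the Atg2 call was lost with the length trend removed (adjusted p = 0.185).

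Many genes of cytosolic and mitochondrial ribosomes were higher, and the size of this rise depended on replicate 2. Of 88 cytosolic ribosomal protein genes 58 rose and 2 fell (65.9% and 2.27%, beside 13.2% and 9.44% over all genes), with a median of 0.40. The shortest length class, in which 23.9% of genes were called higher, held 56 of the 87 with a known length. Against each control separately 8 of the 88 passed as higher (9.09%, beside 4.02% over all genes). RpL35A stood at 547, 723 and 583 CPM, and at 305 (lowest), 377 (median) and 411 CPM (highest) in controls. The sets did not overlap, replicate 2 was the highest library, and RpL35A rose by 0.76 ± 0.10 (adjusted p = 0.00197). RpL32 (0.66 ± 0.11, adjusted p = 0.00608) and RpL22 (0.90 ± 0.15, adjusted p = 0.00495) behaved likewise, though RpL22 overlaps 3 genes on the same strand. The 2 that fell were the paralogues RpL22-like and RpS19b, known from germ cells, at or below 1.64 CPM in the 9 libraries. Without replicate 2 the count of cytosolic ribosomal genes was 50 higher and 1 lower with a median of 0.25, and with the length trend removed it was 38 and 3 with a median of 0.18.

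Of 71 mitochondrial ribosomal protein genes 37 rose and 0 fell (52.1%, beside 13.2% higher over all genes), with a median of 0.44. The shortest length class, in which 23.9% of genes were called higher, held 54 of the 71. Against each control separately 8 of the 71 passed as higher (11.3%, beside 4.02% over all genes). Without replicate 2 the count was 33 and 0 with a median of 0.23, with the length trend removed 28 and 1, and with the settings joined 13 and 1. mRpL23 stood at 58.9, 85.7 and 54.5 CPM against 34.6 to 43.3 CPM, without overlap (0.77 ± 0.13, adjusted p = 0.00637). Of 36 nuclear genes for oxidative phosphorylation 9 rose and 0 fell, with a median of 0.45. This share, 25%, was close to the 23.9% called higher in the shortest length class, which held 20 of the 35 with a known length. Without replicate 2 the count was 3 and 0 and the median 0.19, and with the length trend removed it was 1 and 0. Against each control separately 1 of the 36 passed as higher (2.78%, beside 4.02% over all genes). ND23, a complex I subunit, stood at 1083, 1444 and 890 CPM against 645 to 723 CPM (0.74 ± 0.14, adjusted p = 0.00761) and overlaps a neighbouring gene on the same strand. The gene levy, for a subunit of cytochrome oxidase, stood at 934, 1166 and 720 CPM against 541 to 722 CPM (0.66 ± 0.15, adjusted p = 0.0197). Its call was lost without white RNAi replicate 2 or 3 (highest adjusted p = 0.0530) and with the length trend removed (adjusted p = 0.0615). Of 21 genes of the TCA cycle and fatty acid oxidation 8 rose and 0 fell (38.1%, beside 13.2% higher over all genes). The counts were 5 and 0 in each of the settings, without replicate 2 and with the length trend removed. The 8 included the acyl-CoA dehydrogenase Arc42 (0.57 ± 0.10, adjusted p = 0.00565) and scu (0.65 ± 0.13, adjusted p = 0.0127).

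**Figure D5:**
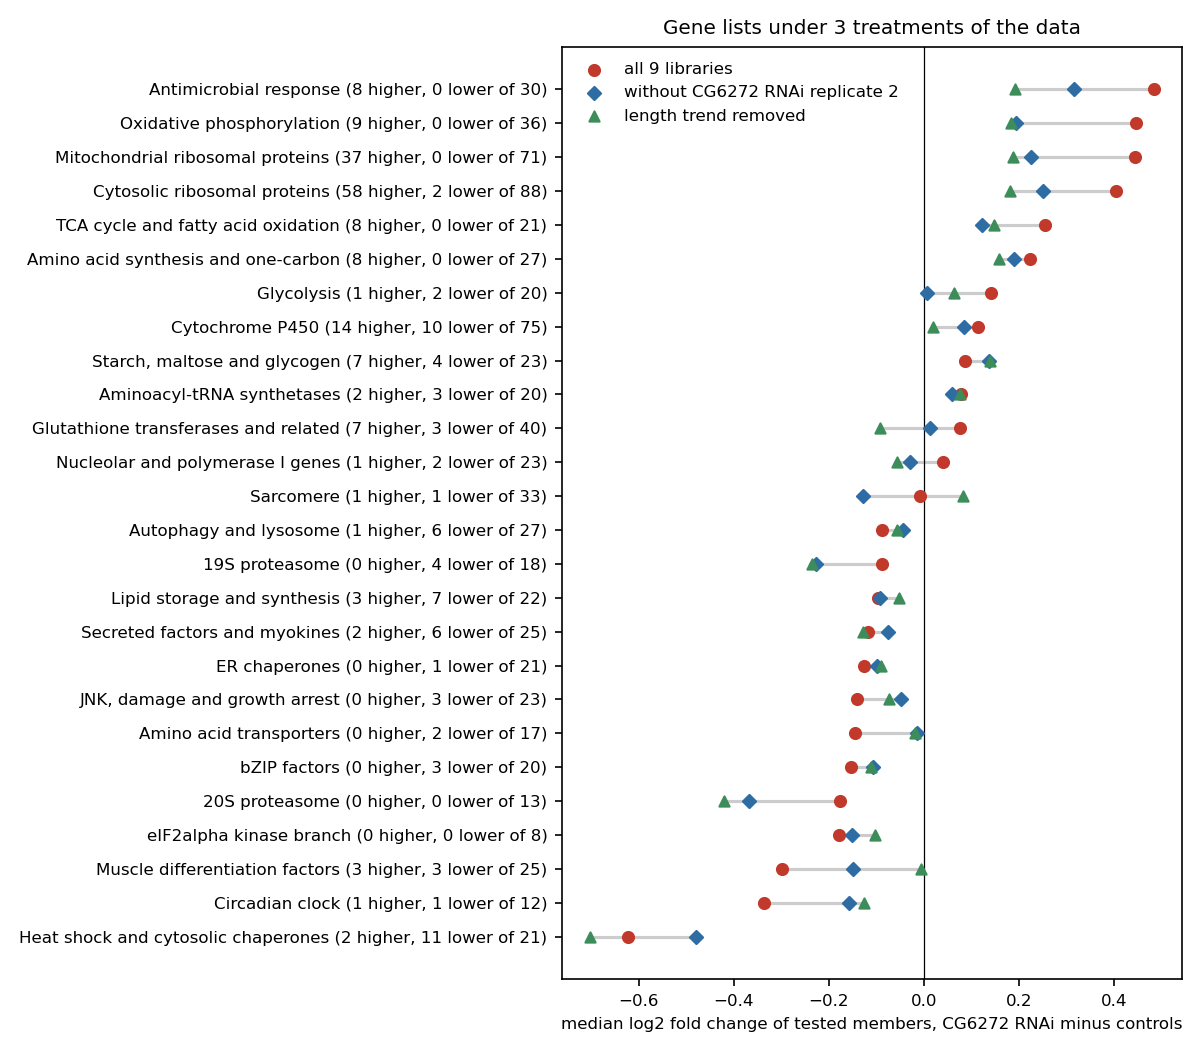
Median log2 fold change against controls (x axis) of each gene list (y axis) from all 9 libraries, without CG6272 replicate 2 and with the length trend removed. The ribosomal and respiratory lists lie to the right of 0 and move towards it in both settings, heat shock genes lie to the left in each, and the 20S proteasome moves further left, from -0.18 to -0.37 and -0.42.

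Genes of glutathione use and oxidant defence changed singly. Of 40 tested 7 rose and 3 fell (17.5% and 7.5%, near the 13.2% and 9.44% over all genes), with a median of 0.08. The counts were 6 and 4 without replicate 2, 4 and 7 with the length trend removed and 1 and 7 with the settings joined. The glutathione transferase GstE10 stood at 11.2, 15.9 and 14.5 CPM, and at 1.79 (lowest), 4.31 (median) and 6.53 CPM (highest) in controls. The sets did not overlap and GstE10 rose by 1.83 ± 0.16 (adjusted p = 0.000360). Gclm, the modifier subunit of the enzyme that limits glutathione synthesis, rose by 0.69 ± 0.15 (adjusted p = 0.0158). Catalase, Cat, went the other way, at 624, 665 and 614 CPM against 945 to 1212 CPM (-0.78 ± 0.10, adjusted p = 0.00129).

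Of 30 genes of the antimicrobial response 8 rose and 0 fell (26.7%, beside 13.2% higher over all genes), with a median of 0.48. The median was 0.74 against GFP RNAi and 0.07 against white RNAi, and the controls differed from each other in 7 of the 30 genes (23.3%, beside 2.55% over all genes). Against each control separately 4 of the 30 passed as higher (13.3%, beside 4.02% over all genes). The counts were 7 and 1 without replicate 2 (median 0.32) and 7 and 2 with the length trend removed (median 0.19). The secreted stress peptide gene TotX stood at 94.8, 127 and 64.9 CPM against 16.8 to 50.1 CPM, without overlap (1.67 ± 0.19, adjusted p = 0.000941). The peptidoglycan-degrading amidase PGRP-SC2, a negative regulator of the Imd pathway, stood at 33.6, 29.1 and 34.5 CPM against 12.4 to 24.4 CPM (0.90 ± 0.10, adjusted p = 0.000774). Its relative PGRP-SC1a stood at 2.34, 2.76 and 2.38 CPM against 0 to 0.410 CPM (adjusted p = 0.00398). IM23, one of the immune-induced peptides of the Toll pathway, rose by 1.19 ± 0.20 (adjusted p = 0.00479), and IM1 and IM2 rose by 0.71 and 0.60. The haemocyte markers Hml (-0.51 ± 0.09, adjusted p = 0.00516) and eater (-0.53 ± 0.09, adjusted p = 0.00632) fell in this same comparison. They were 2 of 6 such markers (33.3%, beside 9.44% lower over all genes), against 0 and 3 without replicate 2 and 0 and 2 with the length trend removed. The list summed to 238 to 272 CPM against 287 to 370 CPM in controls. With the length trend removed the Hml difference was 0.00395 (adjusted p = 0.989).

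Of 8 muscle markers 0 were called in the full set (0 higher and 2 lower at an unadjusted p under 0.05 and in DESeq2), with a median of -0.21, and the myosin heavy chain Mhc, whose promoter drives the transgenes, stood at 4769, 4120 and 4003 CPM against 4231 to 5946 CPM (-0.13 ± 0.13). The summed markers reached 15832 to 19612 CPM against 19925 to 26167 CPM in controls, and the lowest sum was that of replicate 2, in which the long transcripts of bt and sls were low. Of 33 sarcomere genes 1 rose and 1 fell (3.03% each way, beside 13.2% and 9.44% over all genes). They were Act87E (0.40 ± 0.12, adjusted p = 0.0455) and Zasp52 (-0.35 ± 0.10, adjusted p = 0.0439). Both calls were lost without replicate 2 (adjusted p = 0.110 and 0.0921), and with the length trend removed the Zasp52 difference was 0.15 (adjusted p = 0.539). Other sarcomere genes passed in those settings. Without replicate 2 the count was 0 and 4 with a median of -0.13, and the 4 were Act57B, bt, Msp-300 and TpnC4, at -0.28, -0.33, -0.50 and -0.72. The giant kinase gene bt was also the 1 muscle marker that fell in that setting. With the length trend removed the count was 1 and 2, of Mlp60A (0.51) and of Act57B and TpnC4 (-0.33 and -0.73), and 0 muscle markers were called. Of 25 genes of muscle differentiation 3 rose and 3 fell (12% each way, near the 13.2% and 9.44% over all genes). The counts were 1 and 7 without replicate 2, 2 and 3 with the length trend removed and 2 and 4 with the settings joined. Among these genes salm, the zinc finger factor that specifies fibrillar flight muscle, stood at 26.2, 17.7 and 18.4 CPM against 29.9 to 58.1 CPM, without overlap (-0.97 ± 0.13, adjusted p = 0.00220). Of 20 glycolysis genes 1 rose and 2 fell (5% and 10%, beside 13.2% and 9.44% over all genes). The counts were 0 and 1 without replicate 2 and 1 and 2 with the length trend removed. The hexokinase Hex-A, at 532, 473 and 442 CPM against 695 to 900 CPM, fell (-0.64 ± 0.09, adjusted p = 0.00257).

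Of 25 genes for secreted factors 2 rose and 6 fell (8% and 24%, beside 13.2% and 9.44% over all genes). The counts were 1 and 5 without replicate 2 and 2 and 7 with the length trend removed. ImpL2, a secreted antagonist of insulin-like peptides, stood at 119, 117 and 109 CPM, and at 163 (lowest), 217 (median) and 236 CPM (highest) in controls. The CG6272 libraries were close together and below each control, and ImpL2 fell (-0.85 ± 0.13, adjusted p = 0.00341). The Wnt ligand wg stood at 2.00, 1.41 and 2.33 CPM against 3.15 to 4.49 CPM (-0.98 ± 0.16, adjusted p = 0.00499), and the TNF ligand egr changed by -0.32 ± 0.07 (adjusted p = 0.0169), a call lost without CG6272 replicate 1 (adjusted p = 0.0515). The BMP-related ligands myo (-0.42 ± 0.09) and mav (-0.26 ± 0.08) and the proteoglycan dally (-0.52 ± 0.15) fell, while Ilp7 (0.69 ± 0.18) and CG11395 (0.57 ± 0.14), now called Gbp2, rose. Takeout, to, a secreted protein of feeding and the clock, stood at 38.0, 39.6 and 49.6 CPM against 109 CPM in the lowest control and a median of 128 CPM (to, -1.59 ± 0.10, adjusted p = 8.86e-05), with no overlap.

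A direct test against the mean of the ProsB1, ProsB5 and Ter94 RNAi groups showed where CG6272 thoraces differed from those of the other muscle knockdowns. In this fit of 18 libraries 3652 of 11314 genes were called (32.3%), 2064 higher (18.2%) and 1588 lower (14%) in CG6272 RNAi, with a median over all genes of -0.0035. No control library enters this contrast, but the CG6272 libraries are the same as above and the form of their titles still goes with the genotype. Replicates were compared by the mean squared difference of their counts, scaled so that counting error alone gives 1. Ter94 replicates 2 and 3 stood at 1.76, against 11.9 to 286 in the other 17 pairs of replicates of a group. These 2 libraries are close to what 1 library sequenced again would give. Summed as 1 library they gave 3161 calls. The count was 2466 without CG6272 replicate 2 and 3241 with the length trend removed. Of 59 named genes called in this comparison, 48 kept the call and sign without CG6272 replicate 2. With the length trend removed 44 did, and with the Ter94 libraries summed 56. The 3 groups had equal weight in this mean but differed from CG6272 RNAi in unlike numbers of genes. Each alone, ProsB1 RNAi gave 10.7% higher and 7.84% lower, ProsB5 RNAi 11.6% and 10.6%, and Ter94 RNAi 25.8% and 20.4%, so the lists are given against each group as well. Counts against each group alone are from the full set only.

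Of 36 oxidative phosphorylation genes 34 were higher and 0 lower than in the other knockdowns, with a median of 0.82, and without replicate 2 the count was 31 and 0 with a median of 0.57. With the length trend removed it was 32 and 0 of 35, with a median of 0.55. ND23 had means of 698, 591 and 415 CPM in those groups and differed by 1.04 ± 0.10 (adjusted p = 9.52e-06). Against ProsB1, ProsB5 and Ter94 RNAi alone, 21, 31 and 35 of the 36 were higher and 0 lower. Cytosolic ribosomal genes gave 84 higher and 1 lower of 90, mitochondrial ribosomal genes 63 and 0 of 71, and glycolysis genes 13 and 1 of 20, and without replicate 2 these were 66 and 1 of 91, 42 and 0, and 11 and 0. With the length trend removed they were 60 and 2 of 89, 41 and 0 of 71, and 14 and 1 of 19. In that setting the median went from 0.40 to 0.18 for cytosolic and from 0.49 to 0.24 for mitochondrial ribosomal genes. Against ProsB1, ProsB5 and Ter94 RNAi alone, 72, 50 and 82 cytosolic ribosomal genes, 29, 46 and 59 mitochondrial ribosomal genes and 6, 10 and 16 glycolysis genes were higher.

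Most proteasome genes were lower than in ProsB5 and Ter94 RNAi, while 0 were called lower than in ProsB1 RNAi (at an unadjusted p under 0.05 in edgeR, 0 of the 20S core and 1 of the 19S cap). Of the 18 genes of the 19S cap 0 were higher, and 0, 16 and 18 were lower than in ProsB1, ProsB5 and Ter94 RNAi, with medians of 0.04, -0.63 and -1.16. Of the 13 genes of the 20S core, 2 of whose subunits were the targets of ProsB1 and ProsB5 RNAi, 1, 1 and 0 were higher and 0, 11 and 13 lower, with medians of 0.23, -0.55 and -1.65. Against the mean of the groups 10 of the 20S core and 18 of the 19S cap were lower. These were 13 and 18 without replicate 2, and also with the length trend removed. The summed 20S level of 917 to 1335 CPM in CG6272 RNAi lay above the 889 to 911 CPM of ProsB1 RNAi and below the 3132 to 3915 CPM of Ter94 RNAi. Heat shock genes gave 1 higher and 15 lower of 21 against the mean of the groups, and 10, 13 and 16 lower against each alone. Against the mean they gave 0 and 13 of 21 without replicate 2 and 0 and 15 of 20 with the length trend removed. Among single genes GstE10 was higher by 1.15 ± 0.19 (adjusted p = 0.000633) and CG5840 by 0.49 ± 0.06 (adjusted p = 0.000110). The genes salm (-0.82 ± 0.12, adjusted p = 0.000272), ImpL2 (-0.80 ± 0.13, adjusted p = 0.000661) and ref(2)P (-0.75 ± 0.11, adjusted p = 0.000348) were lower, with ref(2)P means of 424, 695 and 891 CPM in the others. Of these 5 genes CG5840 and salm, like CG6272 and CG42255, also passed in the same direction against each knockdown group alone. GstE10 (0.56, adjusted p = 0.126), ImpL2 (-0.34, adjusted p = 0.135) and ref(2)P (-0.16, adjusted p = 0.422) did not pass against ProsB1 RNAi, in which GstE10 was itself above the controls by 1.26 (adjusted p = 0.000944).

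The calls depended on which controls were used, and 183 genes, 90 higher and 93 lower, were called under each of the 21 alternatives tried in the comparison with controls. Of 92 named genes that were called, 24 held in this way. They are Amyrel, Jon65Ai, Jon65Aii, GstE10, PGRP-SC1a, PGRP-SC2, Cyp4d14 and RpL22 among the genes that rose, and, among those that fell, CG6272 itself, Akh, CG14075, CG31832, CG13155, CG42255, LysE, Cat, Cyp4g1, Cyp4aa1, Cyp6g2, CG17560, v(2)k05816, ImpL2, Hsp70Aa and to. Opsin and accessory gland transcripts stood high in some control thoraces. The opsin ninaE stood at 18.1, 17.8 and 19.1 CPM in CG6272 RNAi and from 0.725 to 396 CPM in controls, and the 10 photoreceptor markers summed to 78.5 to 143 CPM against 121 to 1005 CPM, with 0 called (0 higher and 2 lower at an unadjusted p under 0.05, 0 and 3 in DESeq2, and 0 and 1 without replicate 2 or with the length trend removed). Accessory gland markers summed to 0.120 to 0.217 CPM against 0.0330 to 121 CPM. Of these 6 markers 0 were called, also without replicate 2 and with the length trend removed. All 6 were nonetheless lower at an unadjusted p under 0.05 and in DESeq2, and GFP RNAi replicate 1 and white RNAi replicates 1 and 2 held most of the level in controls. Leaving out the 3 controls high in ninaE left 293 calls, and leaving out the 2 highest in Acp36DE left 836, with fewer control libraries in each.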

How the data were processed

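Total RNA of whole thoraces was sequenced on an Illumina HiSeq instrument after library preparation with a TruSeq stranded mRNA kit, per the labels' protocols. Reads were aligned with STAR to genome build BDGP5, per the submitters' processing notes. STAR's version, the annotation, the counting tool and the strand setting were not given in the sources used here. The deposited files hold raw read counts per gene symbol for 15682 genes, with no normalization by the authors, and 5 closing summary entries, left out of library sizes and tests, that held 19.4 to 22.9% of reads in CG6272 libraries and 25.4 to 31.2% in controls.

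The edgeR package, version 4.0.16 under R 4.3.3, was run on these counts (filterByExpr with a minimum count of 10 and a minimum total of 15, TMM scaling, a separate mean for each group, the quasi-likelihood F test, two-sided, Benjamini-Hochberg adjustment). The comparisons with controls used 9 libraries and 10784 genes, and that with the other knockdowns 18 libraries and 11314 genes. Each SE was taken as the size of the log2 fold change over the root of its F statistic. CPM values were scaled over the 18 thorax libraries. Counts of list members against each other knockdown alone, from the same fit of 18 libraries, were added after the data were seen. The procedure was tested on simulated data. Alternatives were RLE scaling, no low-count filter, DESeq2 1.42.0, replicate number as a block, each control alone, 18 libraries in the fit, thinned counts and each library left out in turn. Removal of each library's trend on exonic length, omission of controls high in ninaE or Acp36DE and the sum of Ter94 replicates 2 and 3 were added after the data were seen. Exonic lengths and overlaps came from the Ensembl annotation of BDGP6, another build, by symbol, so no positions or sequences are given. Of 110 named genes 53 overlap another gene, 13 of them on the same strand. The 13 are btl, cnc, crc, Fib, ImpL2, LysE, ND23, RpL22, Cyp4aa1, Cyp4g1, CG7916, CG17560 and v(2)k05816.

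This comparison and the 28 pathway and 11 marker lists were chosen with earlier results of these data known. Within the comparison the libraries were taken by genotype label alone. No list was tested as a set. Genes were named by rule: CG6272, Amyrel, Xrp1, crc and the bZIP genes, the 10 called genes that rose most and the 10 that fell most, given a mean of 5 CPM or more in CG6272 or control libraries and non-overlapping libraries, and the called members with the lowest adjusted p, up to 3 per pathway list and 2 per marker list. Further members of a list were named after their values were seen.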

Additional observations from a re-analysis of the deposited data

How the results depend on the processing

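The 2437 genes called against controls became 786 (401 higher, 385 lower) with GFP RNAi and 754 (376 and 378) with white RNAi as the only control, 4282 (2320 and 1962) with 18 libraries in the fit, 293 (146 and 147) without the controls high in ninaE and 836 (477 and 359) without those high in Acp36DE. DESeq2 called 1713 lower, of 3381 in all. Leaving out 1 library at a time gave 1211 to 3128 calls, 679 to 1867 higher and 532 to 1285 lower, with the fewest without white RNAi replicate 3. For CG6272 RNAi against each control alone, the 828 genes became 1536 in DESeq2, 2171 with 18 libraries, 1243 with the length trend removed, 24 and 298 without the controls high in ninaE and Acp36DE, and 291 to 1488 with 1 library left out. The 275 genes of white RNAi against GFP RNAi became 634, 702, 622, 5 and 32 in the same order, 904 with the length trend removed and CG6272 replicate 2 left out, and 73 to 803 with 1 library left out. Against the other knockdowns, 3652 became 2280 with the length trend removed and CG6272 replicate 2 left out. Same-numbered CG6272 and control libraries did not deviate together (residual correlations of -0.028 to 0.088), so the replicate numbers were not taken as pairs. Between GFP RNAi and white RNAi the same-numbered values were -0.22, -0.36 and 0.27. Unlike-numbered control libraries ranged from -0.54 (GFP RNAi replicate 3 with white RNAi replicate 2) to 0.60 (GFP RNAi replicate 1 with white RNAi replicate 2). With a replicate block 1879 genes were called against controls and 144 between the controls. Hml turned from -0.51 to 0.00395 and Zasp52 from -0.35 to 0.15 with the length trend removed. RLE scaling, no low-count filter and thinned counts kept the count against controls within 1.5 times. Of 93 named genes tried, 23 lost the call without some single library. The 93 include Xrp1 and crc, which had no call to lose. The cause of these shifts was not tested, beyond the fewer libraries in the settings that leave some out. Control libraries were shallower than CG6272 replicates 1 and 3, and 3 reads weigh 0.0945 to 0.103 CPM in controls, and lower levels there cannot be told from 0. The planned promoter motif search and its alternative window were not run, since no promoter sequence was used here.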

Other observations

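Some changes concern genes that mark the transgenes and the fly stocks. The body pigment gene y stood at 21.8, 23.0 and 28.5 CPM in GFP RNAi, but at 0.0292, 0.150 and 0.102 CPM in CG6272 RNAi, and its lowest control, a white RNAi library, held 0.0320 CPM. The CG6272 libraries thus overlapped with the white RNAi libraries and lay below those of GFP RNAi. The eye pigment gene v, for tryptophan oxygenase, stood at 106, 147 and 102 CPM against 60.9 to 81.7 CPM in controls, without overlap, and rose by 0.72 ± 0.12 (adjusted p = 0.00456, edgeR quasi-likelihood).

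Among genes not described above, the clock neuropeptide gene Pdf stood at 25.2, 36.3 and 27.3 CPM against 16.6 to 21.1 CPM and rose by 0.63 ± 0.13 (adjusted p = 0.0115). Of 12 clock genes 1 rose and 1 fell (8.33% each way, beside 13.2% and 9.44% over all genes), with a median of -0.34. The clock counts were 1 and 3 without replicate 2 and 1 and 2 with the length trend removed. The glial factor repo rose by 0.26 ± 0.06 (adjusted p = 0.0218), a call lost without any 1 of 4 libraries (highest adjusted p = 0.0678). It was the 1 of 6 nervous system markers that rose, and 0 fell (16.7%, beside 13.2% higher over all genes). The median of the 6 was -0.08, 4 had a negative difference, and 0 passed against each control separately. Their counts were 1 and 1 without replicate 2 and 1 and 0 with the length trend removed. Of 21 endoplasmic reticulum chaperone genes 0 rose and 1 fell (4.76%, beside 9.44% lower over all genes), against 0 and 3 without replicate 2 and 0 and 5 with the length trend removed. The 1 was the BiP homologue Hsc70-3, at 403, 347 and 375 CPM against 415 to 558 CPM (-0.36 ± 0.10, adjusted p = 0.0377, lost without any 1 of 8 libraries). Of 23 genes of the JNK and growth arrest list 0 rose and 3 fell (13%, near the 9.44% lower over all genes tested), against 1 and 3 in each of those settings. Among the 3 was the TNF receptor CG10176, now called grnd (-0.34 ± 0.07, adjusted p = 0.0127). Of 23 nucleolar and RNA polymerase I genes 1 rose and 2 fell (4.35% and 8.7%, beside 13.2% and 9.44% over all genes). The counts were 1 and 3 without replicate 2 and 0 and 1 with the length trend removed.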
